A study of Mus musculus with 48 samples.

Results

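Gastrocnemius muscle of mice fasted for 24 hr was compared with gastrocnemius muscle of mice kept on caloric restriction (CR) for 2 weeks. The members are 6 of the 48 Illumina MouseRef-8 arrays of the series: fasted muscle replicates 2 and 3 and CR muscle replicates 1 to 4. They were chosen by their labels and by the marker levels given below. All 6 lie on the same chip, so no difference between chips enters the comparison. All mice were wild-type males on the C57Bl/6J background, aged 3 months. The labels give the diet as 40% restriction, whereas the methods describe a daily ration of 40% of what each mouse had eaten before, which is a stronger restriction. CR mice received their food in 1 afternoon portion a day, and tissue was taken just ahead of the following portion, in the same hours as for the fasted mice. Both groups had therefore been without fresh food for a similar time, and they differed in the weeks before. Because an array carries the cRNA of 1 to 3 mice, the replicate is the array, and p-values measure the spread between arrays. Muscle of wild-type control mice (fed WT, 3 arrays) is given beside both groups. These were littermates of FGF21-transgenic mice on another chip. Their labels give no fast or restriction, so they are taken as fed. Feeding, chip and mice cannot be told apart, and their levels were not tested. The arrays labelled ad libitum muscle share a chip with the array labelled fasted muscle replicate 1, which goes against its label, and were not used.

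Skeletal muscle stores much of the body's protein and glycogen and responds to lack of food in several known ways. Falling insulin releases FoxO transcription factors, which switch on ubiquitin ligases and autophagy genes that break down muscle protein. Fatty acids that arrive from adipose tissue activate PPAR receptors, which raise genes for fatty acid use and slow glucose oxidation, and glucocorticoids add to both. Restricted mice that get 1 meal a day eat it quickly and then go without food until the next, so their muscle passes through feeding and fasting each day.

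The labels of the 6 arrays were checked against marker transcripts. Ckm, the muscle creatine kinase, was at 15.68 and 15.59 (log2 signal) on the fasted arrays, and at 15.98, 15.89, 15.92 and 15.94 on the CR arrays. Adipoq, the adipocyte hormone adiponectin, was at 9.27 and 10.54 on the fasted arrays, against 10.84, 10.86, 10.56 and 10.35 on the CR arrays. The array labelled fasted muscle replicate 1 lies on another chip and goes against its label, with Ckm at 4.81 and Adipoq at 16.03, and it was left out. These levels decided which arrays were used and are given as a description. Conversely, the array titled WT Fast eWAT replicate 3, labelled epididymal adipose tissue of fasted mice, had Ckm at 15.55 and Adipoq at 10.36. It is fasted muscle 1 if the labels of those chips are exchanged, and it is given below as the added array, on the same scale but outside the main test. Its profile correlated with the fasted arrays at 0.983 and 0.984, and with the CR arrays at 0.97 to 0.971. Among the 6 main arrays the correlation was 0.993 within fasted, 0.989 to 0.992 within CR and 0.977 to 0.979 between the groups. All these correlations are over all probes, detected or not.

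Levels throughout are background-corrected, quantile-normalized log2 signals, on which undetected probes lie near 5 and the brightest reach about 16. Differences are fasted minus CR, so that a positive value is higher in fasted muscle. The 6 arrays were alike in brightness, with median raw signals of 195 to 226, and 42.5 to 46.1% of their probes were detected. A call needed an adjusted p (Benjamini-Hochberg, limma) under 0.10 and a change over 2-fold, the thresholds named in the methods of the study. Of 8701 genes tested, 691 (7.94%) were called, 362 (4.16%) higher and 329 (3.78%) lower in fasted muscle. Without the fold threshold 3855 (44.3%) passed, 1880 (21.6%) higher and 1975 (22.7%) lower. The values of the groups did not overlap in 4671 genes, with fasted above CR in 26.5% and below CR in 27.2% of those tested. When the arrays were scaled to their medians instead of their quantiles, 820 genes were called, 611 higher and 209 lower. The share higher was then 74.5% instead of 52.4%, and the median difference of all genes moved to 0.15 (log2) instead of -0.01. Leaving out a fasted array reduced the number past the adjusted p at any fold to 2288 (without replicate 2) or 2203 (without replicate 3), while 737 or 661 were called at over 2-fold. With the added array 675 genes were called, and 573 of the 691 were called again in the same direction.

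**Figure D1:**
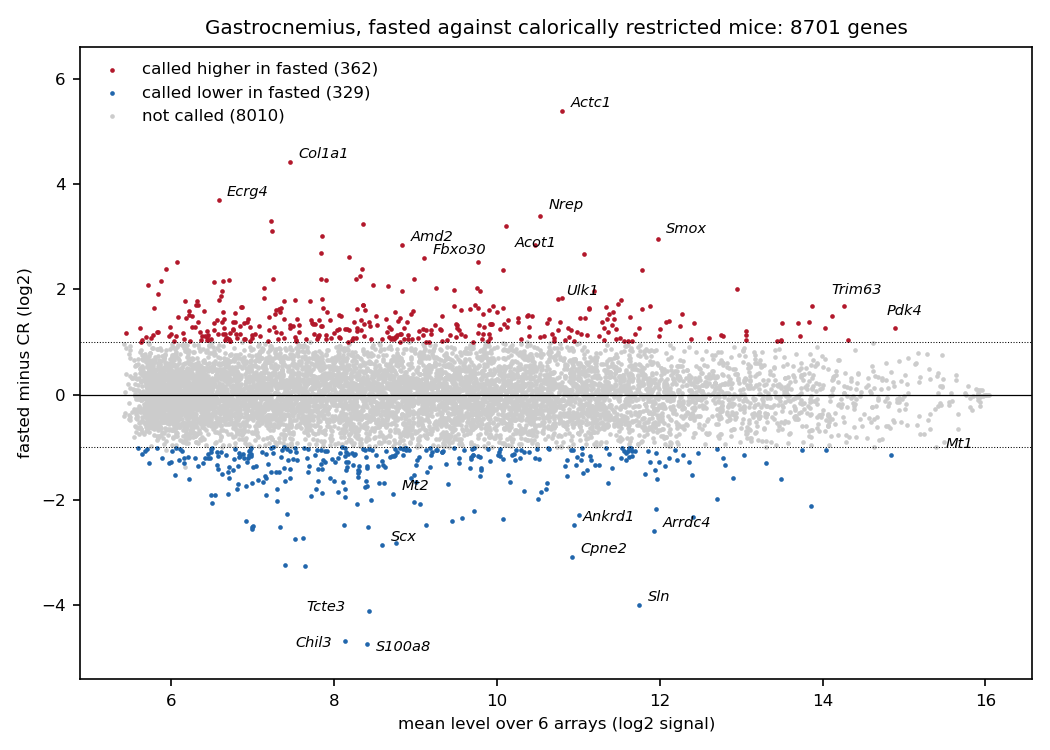
Difference between fasted and CR muscle (fasted minus CR, log2, vertical axis) against the mean level over the 6 arrays (log2 signal, horizontal axis) for 8701 genes. Each point is 1 gene, red where called higher in fasted muscle (362), blue where called lower (329) and grey where not called, and dotted lines mark a change of 2-fold.

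The gene with the highest difference was Actc1, the cardiac and embryonic actin, at 14.22 and 14.56 in fasted muscle and at 8.53, 8.33, 8.27 and 10.90 in CR muscle. Its difference was 5.38 ± 0.68 (SE), or 41.6-fold, with an adjusted p of 0.0011. CR replicate 4 stood above the other CR arrays, yet the groups did not overlap, and without that array the difference was 6.04. In fed WT muscle Actc1 averaged 13.24, closer to the fasted level. A second probe of the gene gave 5.03.

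Col1a1 and Col1a2 encode the chains of type I collagen. Col1a1 was at 10.20 and 10.61 in fasted muscle, against 5.60, 5.66, 6.24 and 6.46 in CR muscle, where only 2 of 4 arrays detected it (4.41 ± 0.27, adjusted p = 5.9e-05). Col1a2 was at 9.17 and 9.44 in fasted muscle, against 6.02, 6.57, 5.81 and 6.43 in CR muscle, where 3 of 4 arrays detected it (3.10 ± 0.22, adjusted p = 0.00012). On both genes every fasted array stood far above every CR array, and fed WT muscle was higher still, with means of 11.82 and 10.52. In whole muscle, more cells of a type and more RNA per cell cannot be told apart. Fmod (fibromodulin), which organizes collagen fibrils, and Chad (chondroadherin), a cartilage matrix protein, differed by 3.01 and 3.24. Ecrg4, which encodes a secreted peptide precursor, was at 8.96 and 9.13 in fasted muscle and was detected on none of the CR arrays (at least 8.86-fold higher, adjusted p = 1.4e-05).

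Nrep (neuronal regeneration related protein) was at 12.72 and 12.87 in fasted muscle, against 9.50, 9.53, 9.27 and 9.28 in CR muscle, a 10.6-fold difference (3.40 ± 0.14, adjusted p = 2.1e-05). Smox and Amd2, enzymes of polyamine metabolism, differed by 2.95 and 2.84. Fbp2, the muscle fructose bisphosphatase, was 7.15-fold higher in fasted muscle, at 12.28 and 12.42 against 9.18, 9.33, 9.49 and 10.06 in CR muscle. Ociad2 differed by 3.30 and was detected on 3 of 4 CR arrays.

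At the other end, S100a8, a calcium-binding protein of neutrophils, was detected on neither fasted array and reached 9.17, 10.01, 10.63 and 10.16 in CR muscle (at least 17.1-fold lower in fasted muscle, adjusted p = 0.00014). Chil3, a chitinase-like protein of activated macrophages, was likewise undetected in fasted muscle and at 9.85, 9.18, 9.55 and 10.20 in CR muscle (at least 13.9-fold lower, adjusted p = 4.5e-05). Lcn2 (lipocalin 2), another product of neutrophils and of stressed tissue, was 7.01-fold lower in fasted muscle. On the added array S100a8 was at 8.23 and Chil3 at 6.69, above both fasted arrays. The S100a8 partner S100a9 was detected on none of the 6 arrays (4.87 to 5.20), but was at 8.04 on the added array.

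Sln encodes sarcolipin, the small membrane protein that uncouples the calcium pump of the sarcoplasmic reticulum from calcium transport. It was at 9.20 and 8.98 in fasted muscle, against 12.47, 13.41, 13.07 and 13.38 in CR muscle, 15.9-fold lower (-3.99 ± 0.26, adjusted p = 7.5e-05). In fed WT muscle it averaged 9.61, so that CR muscle stood apart from both other groups. Arrdc4, an arrestin-domain protein induced by glucose through MondoA, was 6.03-fold lower in fasted muscle, at 10.40 and 10.01 against 13.03, 12.76, 12.69 and 12.70 in CR muscle. It averaged 9.89 in fed WT muscle. Cpne2, a calcium-dependent phospholipid-binding protein, was 8.45-fold lower at 8.79 and 8.95 in fasted muscle and between 11.75 and 12.19 in CR muscle.

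Tcte3, a dynein light chain gene known from testis, was detected on 1 fasted array, at 5.50 and 5.87, and lay between 9.60 and 10.02 in CR muscle (adjusted p = 2.1e-05). The potassium channel subunit Kcne1l, the acetylcholine receptor subunit Chrna9 and the long-chain fatty acid receptor Ffar4 were undetected in fasted muscle. They were at least 7.12-fold, 5.95-fold and 5.79-fold lower there than in CR muscle, in that order. Scx (scleraxis), the tendon transcription factor, and Timp1, an inhibitor of matrix proteases, went against the other matrix genes and were lower in fasted muscle. Scx differed by -2.85, and Timp1, detected on 1 of 2 fasted arrays, was at 6.17 and 5.44 there and between 8 and 8.93 in CR muscle (adjusted p = 0.00053). Of the 12 highest genes 11 had a fed WT mean nearer to fasted than to CR muscle, with Acot1 as the exception. Of the 12 lowest genes 10 did, with Scx and Timp1 as the exceptions.

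**Figure D2:**
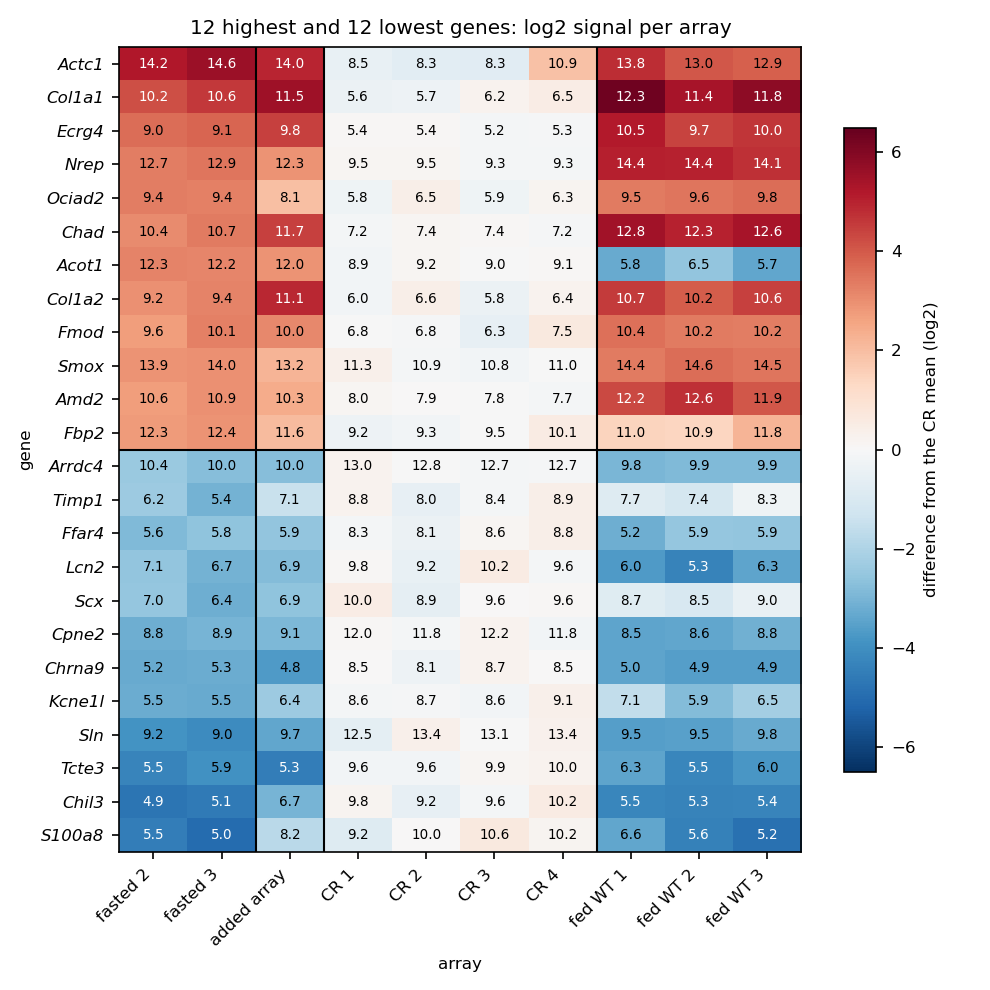
Log2 signal (numbers in the cells) of the 12 genes with the highest and the 12 with the lowest called difference, in rows, on each array, in columns. Colour shows the difference from the mean of the 4 CR arrays (log2), red above and blue below. Fed WT arrays share the colour of the fasted arrays in most rows, but Acot1 is at 12.26 and 12.23 on the fasted arrays and averages 5.96 in fed WT muscle.

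Over all called genes the fed WT mean was less one-sided. Of the 362 genes called higher in fasted muscle, the fed WT mean lay beyond the fasted mean in 124, between the groups in 147 and beyond the CR mean in 91, and it was nearer to fasted in 52.8%. Of the 329 genes called lower it lay beyond the fasted mean in 90, between the groups in 201 and beyond the CR mean in 38, and it was nearer to fasted in 68.7%. Among genes not called, the fed WT mean was nearer to fasted in 48.3% of those with the higher mean in fasted muscle and 53.1% of those with the lower.

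Genes of fatty acid use were higher in fasted muscle. Of 13 measured PPAR target genes 10 were higher and 0 lower at an adjusted p under 0.10. Over all tested genes 21.6% were higher and 22.7% lower, the shares against which every list count below is to be read. The median difference of the list was 0.81, against -0.01 over all tested genes. Acot1, a cytosolic thioesterase that frees fatty acids from coenzyme A, was at 12.26 and 12.23 in fasted muscle, against 8.87, 9.2, 9 and 9.14 in CR muscle. This was 9.16-fold higher (3.20 ± 0.14, adjusted p = 2.1e-05), with the 3 groups in the order fasted, CR, fed WT. Acot2, its mitochondrial counterpart, was 4.79-fold higher, though a second Acot2 probe gave -0.31, and the sequences of these genes are so alike that probes may share signal.

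Angptl4, an inhibitor of lipoprotein lipase that is itself induced by fatty acids, was at 10.56 and 11.19 in fasted muscle and at 9.19, 9.18, 8.77 and 9.50 in CR muscle (1.71 ± 0.23, adjusted p = 0.0015). Plin5, a lipid droplet protein of oxidative tissue, was 2.94-fold higher in fasted muscle. Ucp3, the mitochondrial uncoupling protein of muscle, was 2.35-fold higher. Each of these genes was on average lower in fed WT muscle than in either food-deprived group, with fed WT means of 7.53 for Angptl4, 7.81 for Plin5 and 8.67 for Ucp3. Over the fatty acid oxidation genes 15 of 23 measured members were higher and 0 lower (median 0.34). Among them were the ketone body enzyme Oxct1 (1.01), the dehydrogenase Acads (0.92) and the carnitine carrier Slc25a20 (0.81). The fed WT mean of Oxct1, 12.74, was above the fasted mean of 12.33. Over the 23 members the fed WT mean lay above both groups for 5, between them for 10 and below both for 8. Without fasted replicate 2 or 3, 9 members remained past the adjusted p in each case. Cpt1b, the muscle form of the enzyme that commits fatty acids to the mitochondrion, differed by only 0.31 ± 0.12 (adjusted p = 0.086). Lpl and the transport gene Slc27a4 did not pass, at 0.03 and -0.13.

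Genes that make fatty acids went the other way. Acaca, the acetyl-CoA carboxylase that forms malonyl-CoA, was at 9.45 and 9.37 in fasted muscle, against 11.02, 11.24, 11.22 and 11.31 in CR muscle (-1.79 ± 0.13, adjusted p = 0.00013). Acly, which supplies cytosolic acetyl-CoA, was 2.36-fold lower at 10.78 and 10.76 in fasted muscle, against 12.01, 12.32, 11.91 and 11.78. The elongase Elovl6 was undetected in fasted muscle and detected on all CR arrays (at least 2.69-fold lower, adjusted p = 0.00072). Scd1, the stearoyl-CoA desaturase, varied widely between the fasted arrays, 10.77 and 12.22, against 12.73, 13.33, 12.43 and 12.61 in CR muscle. Its difference of -1.28 (adjusted p = 0.035) became -0.56 (adjusted p = 0.26) without fasted replicate 2. In all, 7 of 15 measured genes of fatty acid and triglyceride synthesis were lower, and 4 were higher, Gpam (1.06) and Lpin1 (0.88) among them, which act in glycerolipid synthesis. Without fasted replicate 2 the counts were 4 lower and 2 higher, and without replicate 3 they were 5 and 2. Acsl6, an acyl-CoA synthetase, was also 3.96-fold lower in fasted muscle. For Acaca, Acly and Acsl6 the fed WT means of 9.72, 11.16 and 11.33 were nearer to fasted than to CR muscle.

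The switch that closes pyruvate dehydrogenase, Pdk4, was at 15.66 and 15.81 in fasted muscle, against 14.10, 14.70, 14.49 and 14.58 in CR muscle, and averaged 12.95 in fed WT muscle. It differed by 1.27 ± 0.18 (adjusted p = 0.0017), with the fasted level near the upper end of the scale. The other kinases Pdk1 (-0.76) and Pdk2 (-0.46) were lower in fasted muscle, while the phosphatase Pdp2 (0.98) and the enzyme subunit Pdha1 (1.02) were higher. Glycolytic genes were mostly higher in fasted than in CR muscle, with 9 of 15 higher (60%) and 1 lower (6.67%), and a median of 0.45. Their fed WT mean lay above both groups for 8 of the 15, between them for 4 and below both for 3. Pkm, the pyruvate kinase of muscle, was 2.06-fold higher at 14.91 and 15.10 in fasted muscle, against 13.94, 13.97, 13.95 and 13.99 in CR muscle. The lactate transporter Slc16a3 was 2.21-fold higher, though a second probe gave -0.05. Hk2 (hexokinase 2), which traps glucose in the fibre, was the 1 member that was lower (-0.56, adjusted p = 0.022), but not under median scaling (adjusted p = 0.18) or without fasted replicate 2 (adjusted p = 0.13). Without either fasted array 6 members were higher. The insulin-regulated glucose transporter Slc2a4 did not pass, at 0.02.

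Glycogen breakdown genes formed a group of similar size of change. Phosphorylase kinase activates glycogen phosphorylase, and its subunits Phkg1, Phka1 and Phkb differed by 1.80, 1.67 and 1.39. Phkg1 was at 12.54 and 12.89 in fasted muscle, against 11.10, 10.70, 10.94 and 10.93 in CR muscle. Pygm, the phosphorylase itself, differed by 1.21 and Pgm1, which hands the product to glycolysis, by 1.04, all with adjusted p of 0.0031 or less. In all 5 genes the fasted arrays stood above all CR arrays, and the fed WT means were at least as high as the fasted ones. Gys1 (glycogen synthase) did not pass, at 0.15, and Gyg, which primes glycogen, was lower (-0.73).

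**Figure D3:**
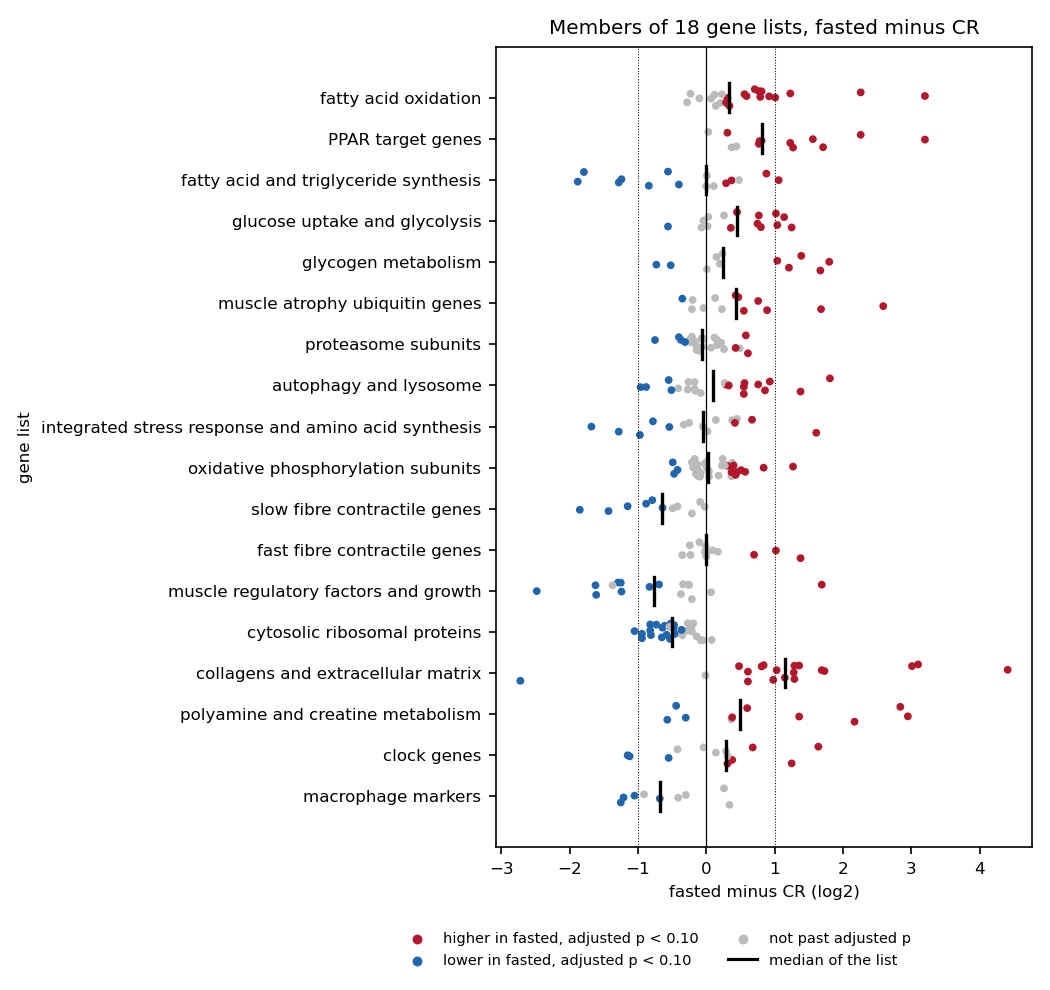
Difference between fasted and CR muscle (log2, horizontal axis) of every measured member of 18 gene lists (vertical axis). Each point is 1 gene, red or blue where higher or lower in fasted muscle at an adjusted p under 0.10 and grey otherwise, and the black bar is the median of the list. Collagen and PPAR target genes lie to the right, with medians of 1.15 and 0.81, and ribosomal and muscle regulatory genes to the left, with medians of -0.50 and -0.76.

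Ubiquitin ligases of muscle atrophy were higher in fasted than in CR muscle. Of 13 measured genes of this list 7 were higher (53.8%) and 1 lower (7.69%), with a median of 0.43. Trim63 (MuRF1), which marks thick filament proteins for breakdown, was at 15.34 and 15.43 in fasted muscle, against 13.56, 13.74, 13.76 and 13.76 in CR muscle. It was 3.20-fold higher (1.68 ± 0.13, adjusted p = 0.00014), and fed WT muscle averaged 11.37, below both groups. Fbxo32 (atrogin-1) was at 14.97 and 14.98 in fasted muscle, against 14.40, 14.39, 14.30 and 14.60 in CR muscle, a smaller difference of 0.55 ± 0.13 (adjusted p = 0.013). Its fed WT mean was 11.89, so both food-deprived groups were high. Fbxo30 (MUSA1), a ligase held back by BMP signalling, was 6.01-fold higher at 10.89 and 10.77 in fasted muscle, against 8.60, 8.04, 7.94 and 8.37. Its fed WT mean of 8.99 was nearer to CR than to fasted muscle. The 28 measured proteasome subunits gave 3 higher (10.7%) and 4 lower (14.3%) members with a median of -0.06, both shares below those of all tested genes. The counts were 8 and 1 under median scaling, 2 and 1 without fasted replicate 2, and 1 and 1 without replicate 3.

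The promoter of Trim63 is shown because FoxO factors are known regulators of this gene, whose level ordered the 3 groups. It holds 1 match to TGTTTAC, a FoxO-type motif searched on both strands and set in capitals, in RefSeq sequence of GRCm38.p6 at chr4:134314870-134315169, plus strand.
Trim63: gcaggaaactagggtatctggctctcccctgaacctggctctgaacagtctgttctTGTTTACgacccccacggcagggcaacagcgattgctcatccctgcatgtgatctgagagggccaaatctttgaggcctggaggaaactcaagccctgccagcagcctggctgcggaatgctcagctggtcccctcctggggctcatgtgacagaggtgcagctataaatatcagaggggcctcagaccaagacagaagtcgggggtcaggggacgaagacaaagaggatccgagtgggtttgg
This motif was present in 3.55% of 27025 promoters of the same length, in 2.58% of those of all tested genes with a promoter in the table, in 2.08% of those of called higher genes and in 1.93% of those of called lower genes. A match in letters is a description and no evidence of binding.

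Autophagy genes were split. Ulk1, the kinase that starts autophagosome formation, was at 11.90 and 12.01 in fasted muscle, against 10.26, 10.09, 10.02 and 10.23 in CR muscle (1.81 ± 0.13, adjusted p = 0.00012). CR muscle was close to the fed WT mean of 10.23. Gabarapl1, a ubiquitin-like protein of the autophagosome membrane, was 2.61-fold higher in fasted muscle. Bnip3, a receptor for the removal of mitochondria, differed by 0.76 (adjusted p = 0.035), and by 0.37 (adjusted p = 0.28) without fasted replicate 3. In all, 10 of 22 measured members were higher (45.5%) and 4 lower (18.2%), the lysosomal membrane protein Lamp1 (-0.96) among the lower ones. Without fasted replicate 2 or 3, 4 members were higher and 3 lower.

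Several targets of FoxO and glucocorticoids were far lower in fed WT muscle than in fasted or CR muscle. Sesn1 (sestrin 1), an inhibitor of mTORC1, was at 13.90 and 14.06 in fasted muscle, against 12.82, 13.18, 13.21 and 13.33 in CR muscle and a mean of 9.51 in fed WT muscle. It differed by 0.84 (adjusted p = 0.0061), while a second probe gave -0.45 and the added array, at 13.14, lay within the CR range. Ddit4 (REDD1), another mTORC1 inhibitor, averaged 13.89 in fasted, 13.51 in CR and 9.89 in fed WT muscle, and its difference of 0.38 (adjusted p = 0.057) did not pass without fasted replicate 2 (adjusted p = 0.13) or 3 (adjusted p = 0.29). Fkbp5, a glucocorticoid receptor cochaperone, averaged 12.61 in fasted, 12.27 in CR and 9.19 in fed WT muscle, and did not pass (adjusted p = 0.12). Foxo1 averaged 11.28 in fasted, 11.23 in CR and 8.56 in fed WT muscle, and Cdkn1a, a cell cycle inhibitor, averaged 12.71, 12.91 and 9.45. Eif4ebp1, the translation repressor 4E-BP1, averaged 14.24 in fasted, 14.45 in CR and 11.23 in fed WT muscle. None of the last 3 passed the test between fasted and CR muscle. Over the glucocorticoid list 9 of 20 measured genes were higher (45%) and 5 lower (25%, near the 22.7% of all tested genes). Fewer were higher when either fasted array was left out. The fed WT mean lay below both other means in 18 of the 20. Gadd45a, which is induced in many forms of muscle atrophy, was at 12.82 and 13.19 in fasted muscle, against 11.14, 11.17, 11.16 and 11.81 in CR muscle (3.22-fold higher). Pik3r1, the regulatory subunit of PI3 kinase, was 2.42-fold lower in fasted muscle.

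**Figure D4:**
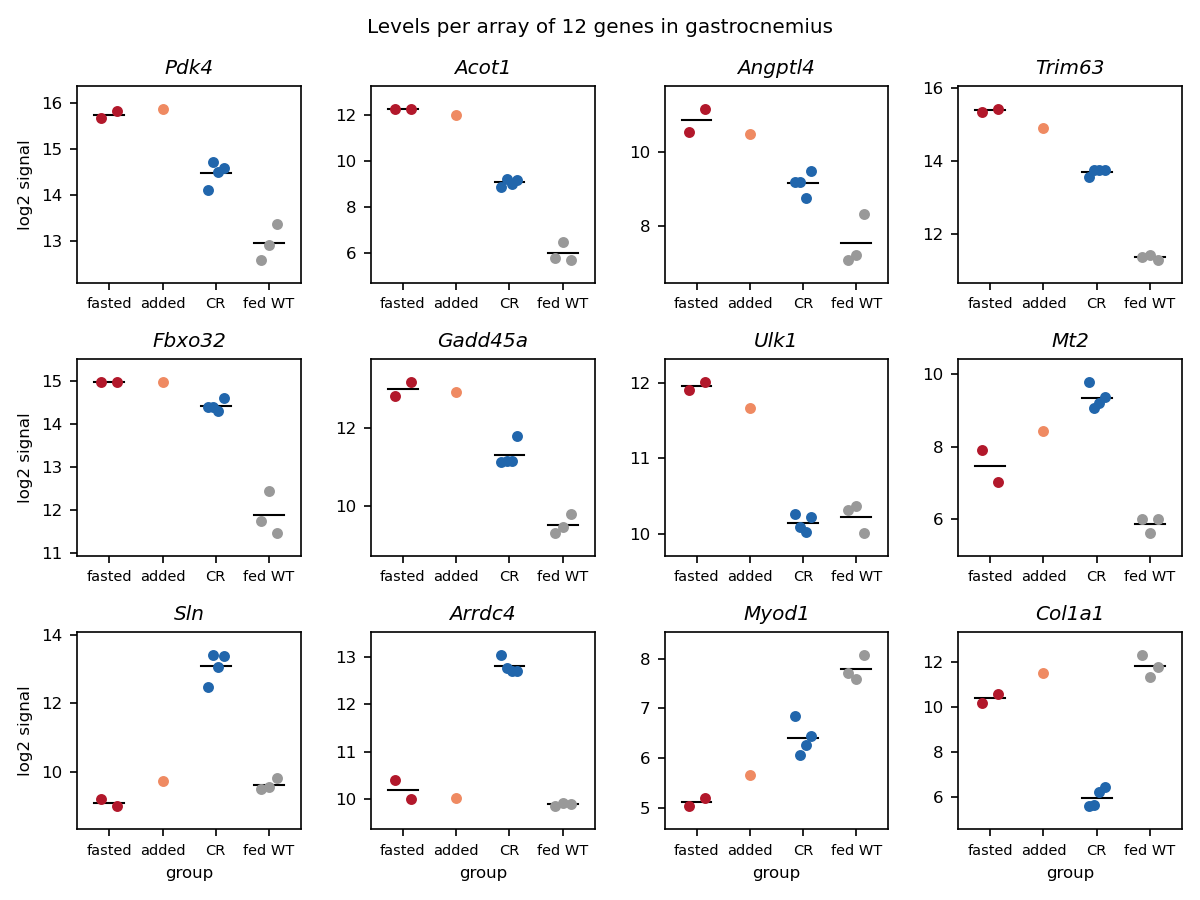
Log2 signal (vertical axis) of 12 genes on each array of fasted muscle (2 arrays), the added array (1), CR muscle (4) and fed WT muscle (3), with black bars at group means. Trim63, Fbxo32 and Pdk4 are lowest in fed WT muscle, while Sln and Arrdc4 are high in CR muscle alone of the groups shown.

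Metallothioneins bind zinc and copper and are induced by metals and glucocorticoids. Mt2 was at 7.91 and 7.03 in fasted muscle, against 9.79, 9.06, 9.20 and 9.37 in CR muscle, 3.68-fold lower (-1.88 ± 0.27, adjusted p = 0.0019). Mt1 was at 15.17 and 15.29 in fasted muscle, against 15.97, 15.78, 15.90 and 15.87 in CR muscle, near the top of the scale, and differed by -0.65 (adjusted p = 0.0053). Fed WT muscle was lowest, with means of 5.88 for Mt2 and 12.72 for Mt1. These genes lie beside each other on chromosome 8, and probes of such close paralogs may share signal. Their promoters are shown because both genes were in the same order across the 3 groups, with matches to the metal response motifs TGCACNC and TGCGCNC in capitals (both strands, RefSeq sequence of GRCm38.p6, plus strand). Mt2 lies at chr8:94172368-94172667 and has 4 matches, and Mt1 lies at chr8:94178839-94179138 and has 3.
Mt2: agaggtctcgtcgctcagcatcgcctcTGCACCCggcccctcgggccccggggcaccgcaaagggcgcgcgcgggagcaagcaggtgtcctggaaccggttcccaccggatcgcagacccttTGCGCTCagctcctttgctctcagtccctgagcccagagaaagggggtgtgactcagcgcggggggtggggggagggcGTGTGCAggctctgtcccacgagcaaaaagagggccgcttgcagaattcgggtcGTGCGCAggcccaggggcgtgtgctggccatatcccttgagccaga
Mt1: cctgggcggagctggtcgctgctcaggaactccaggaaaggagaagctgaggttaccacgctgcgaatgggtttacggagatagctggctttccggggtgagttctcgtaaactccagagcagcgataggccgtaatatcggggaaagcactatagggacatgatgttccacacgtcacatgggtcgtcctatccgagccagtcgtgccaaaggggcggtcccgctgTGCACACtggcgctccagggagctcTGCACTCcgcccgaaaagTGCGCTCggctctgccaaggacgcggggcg
TGCACNC was present in 12.4% and TGCGCNC in 15.5% of 27025 promoters of this length, so a single match is common.

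Regulators of mitochondria were split, with 3 of 11 measured members higher (27.3%) and 4 lower (36.4%), and a median of 0.07. Without fasted replicate 2 the counts were 2 and 1, and without replicate 3 they were 1 and 2. Ppargc1b, a coactivator of mitochondrial genes, was at 7.82 and 7.93 in fasted muscle, against 9.92, 9.42, 9.48 and 9.06 in CR muscle (3.02-fold lower, adjusted p = 0.0015), and averaged 11.03 in fed WT muscle. Ppargc1a, its better known relative, overlapped between the groups, at 7.48 and 8.67 in fasted muscle and at 8.62, 9.50, 9.49 and 9.31 in CR muscle. Its difference of -1.15 (adjusted p = 0.036) was -0.56 (adjusted p = 0.28) without fasted replicate 2. The deacetylases Sirt1 (0.84) and Sirt3 (0.65) were higher. Of 36 measured subunits of oxidative phosphorylation 10 were higher (27.8%, not far above the 21.6% of all tested genes) and 3 lower (8.33%), with a median of 0.02. Cox7a1, a muscle subunit of cytochrome oxidase, was 2.41-fold higher in fasted muscle. Without fasted replicate 2 the counts were 3 higher and 2 lower, without replicate 3 they were 5 and 0, and under median scaling 16 and 0.

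Slow fibre genes were lower in fasted than in CR muscle. Of 11 measured members 6 were lower and 0 higher (median -0.64), and under median scaling 5 and 0. Casq2, the slow calsequestrin, was at 6.98 and 6.65 in fasted muscle, against 8.51, 8.84, 8.67 and 8.62 in CR muscle (-1.85 ± 0.15, adjusted p = 0.00019). The slow myosin heavy chain Myh7 was 2.70-fold lower at 7.40 and 7.28 in fasted muscle, against 8.58, 9.42, 8.76 and 8.33. The slow regulatory light chain Myl2 was 2.22-fold lower. Of 14 fast fibre genes 3 were higher (21.4%, close to the 21.6% of all tested genes) and 0 lower, with a median of 0, and the higher ones were Myoz1 (1.38), Casq1 (1.02) and Mybpc2 (0.70). Casq1, the fast calsequestrin, did not pass without fasted replicate 3 (0.85, adjusted p = 0.16). Many fast fibre transcripts, such as Mylpf and Tnni2, sit at the top of the scale, where a difference may be hidden. The light chain gene Myl1 differed by 0 at its brightest probe and by 1.76 at a second probe.

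In the list of muscle regulatory factors and growth genes 8 of 16 measured members were lower in fasted muscle and 1, Gadd45a, was higher. Ankrd1, a titin-binding stretch sensor, was at 9.44 and 9.15 in fasted muscle, against 11.58, 11.92, 12.03 and 11.57 in CR muscle, 5.57-fold lower. Csrp3 (muscle LIM protein) was 3.06-fold lower, with differences of -0.67 and -1.24 at its other probes, although the added array was at 14.19, within the CR range. The acetylcholine receptor subunit Chrna1 and the adhesion molecule Ncam1, which spread over the fibre when the nerve is lost, were 2.38-fold and 2.35-fold lower. Myod1, the myogenic regulator, was undetected in fasted muscle and detected on all CR arrays (at least 1.42-fold lower, adjusted p = 0.0029). Myog (myogenin) differed by -1.62 (adjusted p = 0.034), with 1 CR array at 8.87 and the others between 6.78 and 7.46, and it did not pass without fasted replicate 3 (-1.41, adjusted p = 0.18). A second Myog probe gave -0.05.

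Ribosomal protein genes were lower together in fasted than in CR muscle. Of 30 measured cytosolic ribosomal protein genes 18 were lower and 0 higher, with a median of -0.50, and under median scaling 10 were lower and 0 higher. The fed WT mean was nearer to fasted than to CR muscle for 25 of the 30. It lay below both groups for 14, between them for 15 and above both for 1. Rpl3 was at 13.29 and 13.38 in fasted muscle, against 14.17, 14.34, 14.45 and 14.59 in CR muscle, 2.07-fold lower. Rpl19 and Rpl30 both differed by -0.94. Bop1, a ribosome assembly factor, was 2.07-fold lower, whereas Ncl (nucleolin) was higher (0.72). Genes of the integrated stress response and amino acid synthesis, many of them targets of ATF4, were split, with 3 of 15 measured members higher (20.0%) and 5 lower (33.3%), and a median of -0.05. Asns, which makes asparagine, was at 7.19 and 7.67 in fasted muscle, against 9.14, 9.36, 9.19 and 8.77 in CR muscle (3.21-fold lower, adjusted p = 0.00091). Psat1, of serine synthesis, was 2.43-fold lower, and the amino acid transporter Slc7a5 differed by -0.97. Nupr1, a stress-induced nuclear protein, was 3.05-fold higher, and the transcription factor Cebpb differed by 0.67. Of 10 measured genes of the cell cycle 4 were lower (40%) and 0 higher. The lower ones included the replication helicase subunits Mcm5 (2.74-fold lower) and Mcm6 (-0.97, and -0.34 at a second probe).

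Polyamine and creatine enzymes held some of the larger changes, with 6 of 10 measured members higher and 3 lower. The lower count was 1 without fasted replicate 2 or under median scaling, and 0 without fasted replicate 3. Odc1, which makes putrescine, was at 14.44 and 14.38 in fasted muscle, against 13.29, 13.01, 12.88 and 13.03 in CR muscle (2.56-fold higher). Amd2, one of the near-identical genes for the decarboxylase that supplies the aminopropyl groups, was at 10.61 and 10.86 in fasted muscle, against 8.04, 7.93, 7.85 and 7.74. Smox, the oxidase that turns spermine back to spermidine, was at 13.91 and 13.97 in fasted muscle, against 11.30, 10.88, 10.80 and 10.97, and its 5 probes gave differences between 2.95 and 3.35. The fed WT means of Amd2 (12.24) and Smox (14.48) were above those of fasted muscle, so CR muscle was the low group. Gamt, which completes creatine, was 4.51-fold higher in fasted muscle and was detected on 2 of 4 CR arrays.

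Collagen and matrix genes had the largest median of the lists counted here over at least 10 measured members, 1.15. Of 19 measured members 17 were higher and 1, Timp1, was lower, and 11 were over 2-fold higher, beside 4.16% of all tested genes. Sparc, a collagen-binding protein of the matrix, was at 12.50 and 12.78 in fasted muscle, against 10.72, 11.02, 10.85 and 11.06 in CR muscle (3.32-fold higher). Lox, which cross-links collagen, was at 10.73 and 11.43 in fasted muscle, against 9.31, 9.12, 9.58 and 9.55, 3.22-fold higher. The fed WT mean was nearer to fasted than to CR muscle for 16 of the 19 genes and above both groups for 14. Without fasted replicate 3 the count was 12 higher and 1 lower.

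Markers of other cell types moved beside these groups. Summed over its list, the signal of tendon and fibroblast markers was 15.38 and 15.37 in fasted muscle, against 14.68 to 14.74 in CR muscle (log2 of the sum), and 7 of 8 measured markers were higher. Most of this sum came from Dcn, at 15.20 and 15.16 in fasted muscle and 14.55 to 14.61 in CR muscle. The list shares Col1a1, Fmod, Dcn and Lum with the matrix genes, and the defining tendon genes Tnmd and Thbs4 were undetected on all 6 arrays. The summed macrophage markers were at 13.52 and 13.61 in fasted muscle, against 14.09 to 15.04 in CR muscle, and 4 of 9 measured markers were lower and 0 higher, with 7 lower when CR replicate 2 was left out. Most of this sum came from Lyz1, at 13.01 and 13.09 in fasted muscle and 13.66 to 14.60 in CR muscle. Other Lyz1 probes gave -0.55 and -0.44. Complement C1qb was 2.31-fold and Lyz2 2.38-fold lower, while the tissue macrophage markers Adgre1 (-0.30) and Mrc1 (-0.41) did not pass and Itgam was undetected. Cd163 (0.26) and Cd14 (0.34), of opposite sign, did not pass either. On the added array Lyz2 was at 10.95, as on CR replicate 1, and C1qb at 7.87, below both fasted arrays. Endothelial markers summed to 14.29 and 14.33 in fasted muscle, against 13.72 to 14.03 in CR muscle, with 5 of 10 higher (2 without either fasted array, 9 under median scaling). Nerve and Schwann cell markers summed to 13.07 and 12.90 in fasted muscle, against 11.68 to 12.66 in CR muscle. Adipocyte markers summed to 13.69 and 13.99 in fasted muscle, against 12.90 to 13.38 in CR muscle, carried by Car3, which muscle also expresses, while Plin1, Retn, Fabp4 and Cebpa were undetected. The leptin gene Lep was at 7.35 on both fasted arrays and detected on 1 of 4 CR arrays (adjusted p = 0.00049), so no fold is given. Skeletal muscle markers summed to 19.32 to 19.35 on all 6 arrays, but most of them lie near the top of the scale, where a difference may be hidden. Second probes of Myl1 and Mb gave 1.76 and 0.66, against 0 and -0.02 at the brightest probes. The part of these cell types in the matrix and immune genes was not tested.

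Clock genes differed although all mice were killed in the same hours of the day. Arntl (Bmal1), the activator of the clock, was at 10.90 and 10.82 in fasted muscle, against 9.40, 9.39, 9.05 and 9.05 in CR muscle (3.11-fold higher, adjusted p = 0.00034). The repressor Cry2 was 2.38-fold higher at 9.68 and 10.15 in fasted muscle, against 8.79, 8.64, 8.27 and 8.97. Ciart (Chrono), a repressor of the same complex, was 2.21-fold lower at 8.99 and 8.90 in fasted muscle, against 9.97, 10.23, 10.11 and 10.06. Bhlhe40 (Dec1) was 2.18-fold lower. Per1, a repressor of the core loop, differed little, at 11.42 and 11.51 in fasted muscle and 11.12 to 11.23 in CR muscle (0.31, adjusted p = 0.076), and a second Per1 probe gave -0.53. Of 13 measured clock genes 5 were higher (38.5%) and 3 lower (23.1%, close to the 22.7% of all tested genes). Fewer passed when either fasted array was left out. The promoter of Ciart is shown because it holds 3 matches to the E-box CACGTG through which the clock complex is known to act (capitals, RefSeq sequence of GRCm38.p6, chr3:95882179-95882478, minus strand).
Ciart: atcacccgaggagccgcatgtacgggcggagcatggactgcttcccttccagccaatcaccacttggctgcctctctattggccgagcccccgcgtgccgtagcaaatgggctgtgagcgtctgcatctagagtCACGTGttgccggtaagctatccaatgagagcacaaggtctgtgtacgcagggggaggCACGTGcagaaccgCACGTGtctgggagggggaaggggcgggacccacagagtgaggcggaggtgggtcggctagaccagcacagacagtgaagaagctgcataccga
This motif was present in 7.24% of 27025 promoters. It was present in 11.4% of the promoters of called higher genes, 10.8% of those of called lower genes and 10.3% of those of all tested genes with a promoter in the table.

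Of 11 measured genes of the IGF-1 and myostatin axis 2 were higher (18.2%) and 3 lower (27.3%), shares near those of all tested genes. Igfbp3, which binds IGF-1, was 4.09-fold lower at 7.33 and 7.93 in fasted muscle, against 9.55, 9.72, 9.76 and 9.62 in CR muscle. Cish, a target of growth hormone signalling, was 3.13-fold lower, and the activin receptor Acvr2b differed by -0.86. Igfbp5, another binding protein, and Fst (follistatin), which binds myostatin, were higher (0.79 and 0.60). Igf1 itself (0.31) and Ghr (-0.09) did not pass. Hmox1, which degrades heme under oxidative stress, was at 9.35 and 9.89 in fasted muscle, against 6.56, 7.04, 7.38 and 6.77 in CR muscle (6.40-fold higher, adjusted p = 3e-04). Osgin1, another gene of the oxidative stress response, was 4.59-fold higher. Of 12 measured heat shock genes 6 were higher (50%) and 4 lower (33.3%), and fewer passed when either fasted array was left out. Bag3, a cochaperone that directs damaged filament proteins to autophagy, was 2.56-fold higher, while the endoplasmic reticulum chaperone Hspa5 was 2.04-fold lower and did not pass with the added array (-0.63, adjusted p = 0.14). Egln3, an oxygen-sensing hydroxylase, was 2.99-fold lower. Fgf21, Mstn, Foxo3, Cd36 and Fasn were on the array but detected on at most 1 of the 6 arrays and were not tested.

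The same contrast was set against liver, where fasted replicates 1 to 3 and CR replicates 1 and 2 share a chip. The difference fasted minus CR was compared between muscle and liver by an interaction term in limma, over 7225 genes tested in both tissues, although tissue and chip coincide. For 998 genes (13.8%) the 2 differences were unlike at an adjusted p under 0.10 and over 2-fold, 510 (7.06%) with the muscle difference above the liver difference and 488 (6.75%) below. Of 480 genes called in muscle among those tested in both tissues 310 passed this test. The 480 were chosen for a large muscle difference on the same arrays, so a high share was favoured in advance. In liver 301 of the 7225 genes were called at the same thresholds. Called in both tissues were 39 genes with the same direction and 18 with opposite directions.

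Some genes differed between the tissues in sign. Arntl was higher in fasted muscle (1.64) and lower in fasted liver (-1.17), an interaction of 2.81 (adjusted p = 9.1e-05). Csrp3 differed by -1.61 in muscle and 2.53 in liver, and Osgin1 by 2.20 in muscle and -1.56 in liver. On the added array Csrp3 was at 14.19, within the CR range of muscle. Sesn1 was higher in fasted muscle (0.84) and lower in fasted liver (-1.76). However, a second Sesn1 probe gave -0.45 in muscle, and the added array, at 13.14, lay within the CR range. Scara5, a ferritin receptor, differed by 1.45 in muscle and -2.18 in liver, where fasted arrays ranged from 6.98 to 9.41. For other genes the difference was larger in liver. Fdps, of cholesterol synthesis, differed by 0.36 in muscle and -4.04 in liver, Thrsp, a lipogenic nuclear protein, by 0.48 and -3.79, and Cidec, a lipid droplet protein, by 0.44 and 5.19. For others it was larger in muscle. Amd2 differed by 2.84 in muscle and -0.45 in liver, Ulk1 by 1.81 and -0.30, and Cpne2 by -3.08 and 0.05. For fatty acid synthesis the test did not separate the tissues, with Acaca at -1.79 in muscle and -1.66 in liver (interaction -0.13 ± 0.19, adjusted p = 0.64). Acly was at -1.24 in muscle and -1.23 in liver (interaction -0.01 ± 0.23, adjusted p = 0.98). Acot1 was higher in both, by 3.20 in muscle and 1.78 in liver, and the excess in muscle of 1.42 passed the test (adjusted p = 0.0015).

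**Figure D5:**
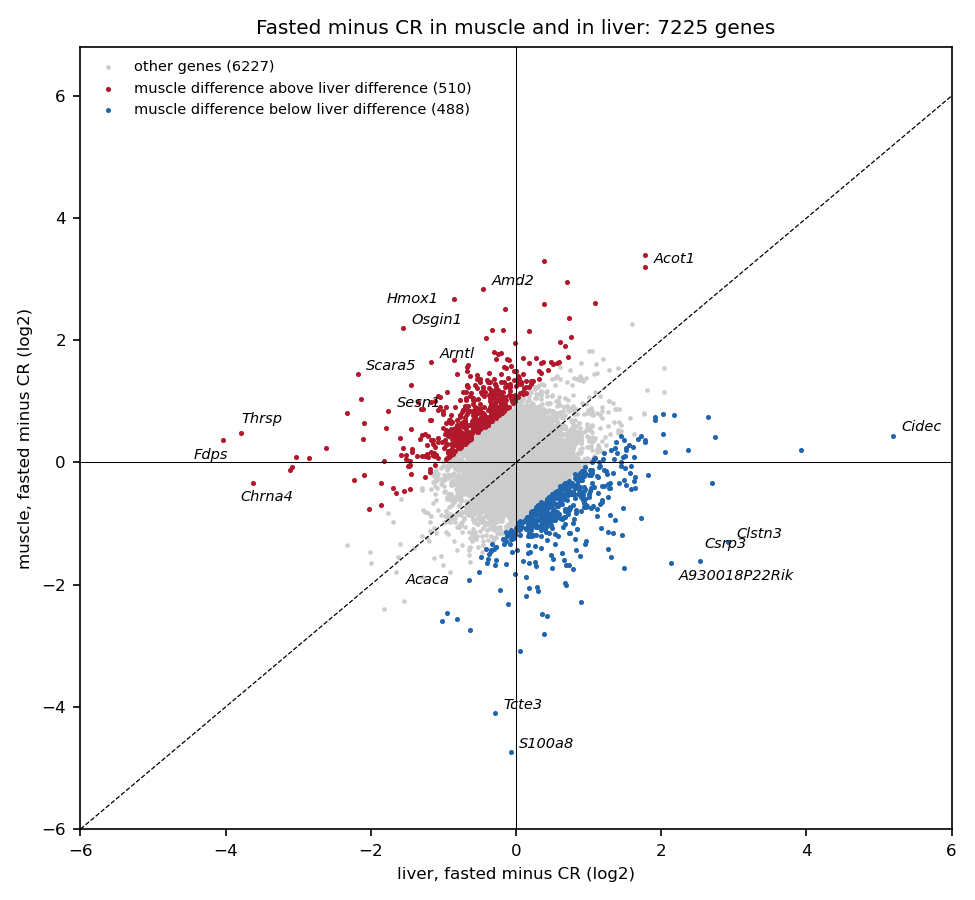
Difference fasted minus CR (log2) in muscle (vertical axis) against the same difference in liver (horizontal axis) for 7225 genes. Each point is 1 gene, red or blue where the muscle difference was above (510) or below (488) the liver difference by the interaction test, and the dashed line marks equal differences. Acaca lies near the line, whereas Arntl and Csrp3 lie in quadrants of opposite sign.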

How the data were processed

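RNA of mouse gastrocnemius was hybridised to Illumina MouseRef-8 v2 arrays, 1 to 3 mice an array, and scanned with BeadStudio (version not given in the sources used here). The deposited tables hold, per the file headers, the intensity of each probe on a linear scale without background correction, and a detection p-value for each probe and array. A table of log2 values that the authors made by correcting the background with a model, taking logs and normalizing quantiles (48 arrays) was used only as an alternative.

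In R 4.3.3 with limma 3.58.1, intensities of the 6 arrays were background-corrected (normexp from the detection p-values, offset 16) and quantile-normalized; the added array and fed WT arrays were mapped onto the same distribution. Of 25697 probes 23978 carried 1 gene symbol, 0 several and 1719 none. A gene was read from its brightest probe and tested where 2 or more of the 6 arrays detected that probe (detection p under 0.05), with lmFit and eBayes. Low genes are compressed by the offset, so their fold changes are understated, and differences near 16, the top of the scale, may be compressed. "At least" folds set undetected probes, per array, at the higher of the lowest detected signal and their own. Named genes were the 12 highest and 12 lowest called genes, called or leading members of gene lists, 37 listed core genes, markers and the leading interaction genes; values of other list members are given where a group is described. Promoters span 250 bases before to 50 after the RefSeq start. The code was tested on simulated data. Members and lists were chosen with earlier results of these data known. The number of arrays limits the precision.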

Additional observations from a re-analysis of the deposited data

Results flagged for a closer look

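In 11 of 207 named genes 1 of the 4 CR arrays stood apart from the other 3 by more than the limit of Dixon's gap test, which chance reaches in about 1 of 20 groups. CR replicate 4 was apart for Actc1 (10.9 against 8.27 to 8.53 on the other arrays, log2 signal), Bhlhe40 (11.21 against 11.48 to 11.51), Dcn (14.61 against 14.55 to 14.56) and Gadd45a (11.81 against 11.14 to 11.17). CR replicate 2 was apart for Csrp3 (14.6 against 13.75 to 13.9), Mbp (11.95 against 11.02 to 11.09), Mrc1 (8.14 against 8.97 to 9.02) and Psmb9 (6.45 against 6.95 to 7.05). CR replicate 1 was apart for Myl1 (16 against 16.04 to 16.05) and Trim63 (13.56 against 13.74 to 13.76), and CR replicate 3 for Hspb1 (13.21 against 12.88 to 12.92).

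The difference fasted minus CR was unlike in muscle and liver by the interaction test for 12 leading genes, whose interaction is the muscle difference minus the liver difference. It was positive for Fdps (4.4, from 0.36 in muscle and -4.04 in liver), Thrsp (4.27, from 0.48 and -3.79), Osgin1 (3.76, from 2.2 and -1.56), Scara5 (3.64, from 1.45 and -2.18), Hmox1 (3.54, from 2.68 and -0.86) and Chrna4 (3.29, from -0.33 and -3.62). It was negative for Cidec (-4.75, from 0.44 and 5.19), S100a8 (-4.67, from -4.74 and -0.07), Clstn3 (-4.22, from -1.3 and 2.92), Csrp3 (-4.14, from -1.61 and 2.53), Tcte3 (-3.81, from -4.1 and -0.29) and A930018P22Rik (-3.77, from -1.65 and 2.13). Some of these are fitted values at probes not above background, and give no size of fold: in muscle S100a8 and Clstn3 were undetected on both fasted arrays, Chrna4 on both fasted and 2 of 4 CR arrays, and Tcte3 and A930018P22Rik on 1 of 2 fasted arrays. In liver the levels of S100a8 (means of 5.77 fasted and 5.84 CR) and of Chrna4 in fasted mice (5.39) were near those of undetected probes. Tissue and chip cannot be told apart in this test.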

How the results depend on the processing

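Against 691 genes called between fasted and CR muscle, 273 were called without background correction and 160 on the deposited log2 values, whose range is compressed. The interaction with liver gave 396 calls without background correction, 256 on the deposited values and 1468 under median scaling, against 998. Leaving out 1 array gave 661 to 737 calls for muscle and 971 to 1062 for the interaction, and 590 and 560 of the 691 genes were called again without fasted replicate 2 and 3. Groups share replicate numbers 2 and 3 only. Deviations of same-numbered arrays from their group means correlated at -0.00533 and 0.0174. With 2 fasted arrays their deviations mirror each other, so this check cannot decide whether the arrays were paired. The fit with the replicate block called 738 genes, 633 of them among the 691. With the array labelled fasted muscle 1, which carries adipose transcripts, 482 genes were called, 203 higher and 279 lower, and the difference changed sign for Ampd1 (-2.42), Asns (0.32), C1qc (0.11), Casq1 (-0.88), Ckmt2 (-2.74), Clstn3 (0.32), Cox7a1 (-1.81), Cpt1b (-1.97), Fabp3 (-2.03), Fbxo32 (-1.81), Fbxo40 (-0.02), Fdps (-0.23), Gadd45a (-0.46), Hba-a1 (0.07), Mbp (-0.86), Mybpc2 (-2.75), Myoz1 (-1.89), Pfkfb4 (-0.57), Phka1 (-0.17), Phkb (-0.04), Phkg1 (-0.53), Pkm (-0.17), Psmd1 (-0.17), Psmd11 (-0.27), Pygm (-1.78), Scd1 (0.21), Trim54 (-1.95), Trim63 (-1.67) and Uqcrc1 (-0.22). Apoc3 (0.09) differed by 1.02 without fasted replicate 2 and changed sign without replicate 3 (-0.85). Calls under the other settings, an offset of 1, other detection filters, an adjusted p under 0.05, SAM and fits over 12 muscle arrays, ranged from 668 to 857. Of 169 named genes past the adjusted p, 51 kept direction and side of the threshold in every alternative except the replicate block. These alternatives include the fit with the array that carries adipose transcripts. In that fit 84 of the 207 named genes no longer passed the adjusted p and 29 changed sign, so the 51 depends largely on it. They also include fits that leave a single fasted array.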
